A study of Mus musculus with 6 samples.

Results

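The IgLON genes (Ntm, Lsamp, Opcml, Negr1 and Iglon5) and the teneurin genes (Tenm1, Tenm2, Tenm3 and Tenm4) were followed in cultured Msc80 cells, which derive from mouse Schwann cells, the glia of peripheral nerve. They are 9 of the 54109 genes listed in the count tables, found by matching Ensembl gene IDs to symbols, and all 9 were matched. The families were selected on measured values, since earlier results of the same comparison were known, so what follows for the 9 genes is a description. Where a member is said to be called or not, the call comes from the fit over all genes, describes where its values lie and supports nothing. Messenger RNA was sequenced from 3 control cultures, in which Sox10 is wild type, and from 3 Sox10ko cultures, in which CRISPR/Cas9 editing was used to prevent expression of Sox10, a transcription factor of glia and neural crest. Both groups were grown in DMEM with PenStrep and 10% FCS. The labels name the cultures of a group biological replicates and speak of a cell clone for the Sox10ko cultures, without saying whether 1 or several clones were used. Loss of Sox10 and a difference between clones cannot be told apart, and the spread between cultures may be partly technical.

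IgLON proteins are short adhesion molecules with immunoglobulin domains, held on the outer face of the membrane by a glycosylphosphatidylinositol (GPI) anchor, and they bind one another across cell contacts. Teneurins are very large transmembrane proteins whose extracellular end binds latrophilins (Adgrl genes), adhesion receptors that in turn bind FLRT proteins. Both families are best known from neurons, where they act in axon guidance and synapse formation.

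Most members share an unusual gene architecture. In the GENCODE annotation of GRCm38, 8 of the 9 genes span at least 616 kb, longer than at least 99.6% of the tested genes, while Iglon5 spans 17.2 kb and the median tested gene 19.5 kb. Lsamp is the longest at 2197 kb. The coding sequences are much shorter and even within each family, from 1011 bases (Iglon5) to 1068 bases (Lsamp) among IgLON genes and from 8148 bases (Tenm3) to 8502 bases (Tenm4) among teneurins. Aligned coding bases were identical at 59.4% (Ntm and Iglon5) to 75.9% (Ntm and Opcml) of positions between IgLON genes and at 64.8% (Tenm1 and Tenm3) to 70.2% (Tenm2 and Tenm3) between teneurins.

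Ntm and Opcml also share an unbroken identical run of 95 coding bases, against at most 19 bases in any other IgLON pair and 29 in any teneurin pair. The run is the start of both coding sequences and lies in the first coding exon of each, at chr9:29411628-29411722 on the minus strand for Ntm and chr9:28404246-28404340 on the plus strand for Opcml. It is shown because a read that falls inside it fits both genes equally, and the capitals mark the shared start codon.
Ntm and Opcml: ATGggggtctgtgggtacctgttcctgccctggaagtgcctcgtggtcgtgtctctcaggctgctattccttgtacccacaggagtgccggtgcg
How such reads were assigned is not given in the sources used here. Opcml, with far fewer reads than Ntm, is therefore an uncertain count.

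Promoter windows of 250 bases before a RefSeq start (GRCm38.p6) were found for all 9 members, 12 windows in all. Several lie away from the outer start of the GENCODE models used for the spans. Both Ntm windows lie about 550 kb inside its model, 481 and 1248 bases from the nearest GENCODE start. Window 2 of Lsamp lies 1548 kb inside its model, and those of Tenm1, Tenm2 and Tenm3 lie 154, 292 and 169 kb inside theirs. That of Opcml falls wholly in annotated exons. The windows of Tenm1 and Tenm2 end in the letters ag, so intron sequence before an inner exon cannot be told apart from a promoter there. All 12 windows were searched on both strands for ACAAAG and ACAATG, the core letters of the motif bound by SOX proteins. These letters stood in 3 of 12 windows (25.0%), those of Ntm, Iglon5 and Tenm1, against 25.2% of all 32851 promoters, 17.97% of the promoters of tested genes and 20.5% of those of genes called lower in Sox10ko. With 12 windows, nothing is read from the members' share. The window of Iglon5 and the piece around the match in the Ntm window are shown because these 2 genes were lower in Sox10ko, with the matched letters in capitals; the match lies 90 bases before the start in Iglon5 and, on the opposite strand, 146 bases before the start in Ntm.
Iglon5, chr7:43490212-43490461, minus strand: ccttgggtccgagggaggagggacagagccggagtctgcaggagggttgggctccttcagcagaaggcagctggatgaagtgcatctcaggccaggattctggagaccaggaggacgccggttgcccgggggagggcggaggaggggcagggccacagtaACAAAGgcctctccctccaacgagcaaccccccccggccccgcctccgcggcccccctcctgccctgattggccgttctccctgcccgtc
Ntm, chr9:29412814-29412843, minus strand: acctcacagtaaCTTTGTcttcttaattgc
A match is a run of letters only, and these data hold no measure of binding there.

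The targeted gene itself checks the labels. Sox10 was read at 606, 627 and 617 CPM (reads scaled to a common library size with the TMM correction) in control and at 82.3, 67.5 and 116 CPM in Sox10ko, so that 14.4% of the control mean remained. The libraries held from 32328618 to 41834431 counted reads, and 1 read was worth from 0.0235 to 0.0300 CPM. Of the 15427 genes with enough reads to test, 4939 (32.0%) were called, which here means an edgeR quasi-likelihood adjusted p under 0.05; 14.7% were called lower and 17.3% higher in Sox10ko. Without control replicate 3 the count was 2869. The median log2 fold change of all tested genes was 0.02. Summed marker levels changed with the genotype: 15 Schwann cell markers went from 5855 to 6423 CPM in control to 721 to 994 CPM in Sox10ko, 8 smooth muscle markers from 31.7 to 56.9 CPM to 165 to 784 CPM, and 10 fibroblast markers from 462 to 587 CPM to 1111 to 2316 CPM. The smooth muscle sum in Sox10ko was mostly Acta2 (357 CPM on average), with 5 of 7 tested markers called higher. Of those called, Acta2, Cnn1 and Myh11 passed the filter on low counts only through Sox10ko. Their calls had to go this way if they were made. The fibroblast sum there was mostly Col1a1 and Pdgfrb, with 3 of 5 tested called higher, while Dcn, Lum, Dpt, Thy1 and Fap were below 0.2 CPM on average in both groups. No marker of the Schwann cell list was at 0 in control, and 11 of its 15 members were called lower. Sox10, the edited gene, is in that list and among those calls, so that part of the fall was fixed by the design. Ngfr held the largest part of the Schwann cell sum in control, at 2965 CPM on average against 16.4 CPM in Sox10ko. In bulk RNA, fewer cells of a type and less RNA per cell cannot be told apart, and the part of these shifts in the results on adhesion genes was not tested.

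Of the 9 members, 6 held enough reads to be tested. Between the groups, 4 of them (Ntm, Opcml, Iglon5 and Tenm3) were called lower and 0 higher, where 14.7% and 17.3% of all tested genes were; DESeq2 and limma-voom called the same 4, and 0 were higher at an unadjusted p under 0.05. Groups did not overlap for the same 4 of 6, and 49.3% of all tested genes had groups that do not overlap. Because earlier results of this contrast led to the choice, nothing is read from these counts. Without control replicate 3 only 2 members (Ntm and Tenm3) were called, and without Sox10ko replicate 2 there were 5, with Tenm4 added on the higher side. The plot of every library shows a family in which 4 genes carried almost all reads and the other 5 stayed below 1 CPM.

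**Figure D1:**
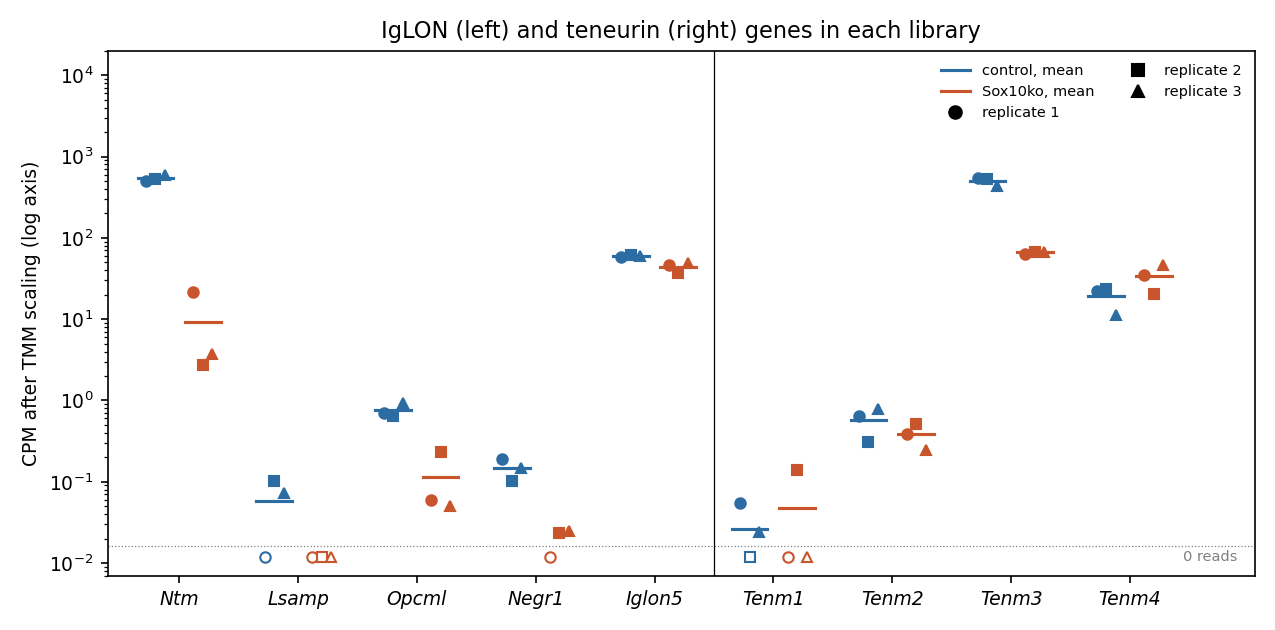
CPM after TMM scaling (log axis) of the 5 IgLON genes, left of the line, and the 4 teneurin genes, right of it, in each of 3 control and 3 Sox10ko libraries; points are libraries, bars are group means, open points on the lowest line are libraries with 0 reads, and a mean near that line is not drawn. Ntm and Tenm3 were both near 500 CPM in control and far lower in every Sox10ko library, Iglon5 moved little, and the groups of Tenm2 and Tenm4 overlap.

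Ntm encodes neurotrimin, a GPI-anchored adhesion protein of neurons. The gene (ENSMUSG00000059974, chr9:28994750-29963141, minus strand) gave 495, 535 and 592 CPM in control replicates 1 to 3, and 21.4, 2.75 and 3.69 CPM in Sox10ko replicates 1 to 3. All control libraries stood far above all Sox10ko libraries, and Sox10ko replicate 1 held several times more Ntm than the other 2. The means were 540.5 ± 48.6 and 9.28 ± 10.5 CPM (SD, n = 3 each), a 58.2-fold difference and a log2 fold change of -5.88 ± 0.83 (SE). Without Sox10ko replicate 1 the difference was 168-fold. The SD was thus larger than the mean in Sox10ko. The direction and the call held in all 14 alternative settings, with log2 fold changes from -7.40 to -5.44.

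Iglon5, which encodes the target of autoantibodies in a human sleep and brainstem disorder, differed far less between the groups than Ntm did. The gene (ENSMUSG00000013367, chr7:43472904-43490075, minus strand) was read at 58.7, 61.7 and 59.6 CPM in control and 46.2, 36.9 and 49.1 CPM in Sox10ko. The Sox10ko libraries all lay below the controls, by a narrow margin. The means were 60.0 ± 1.54 and 44.1 ± 6.38 CPM, a 1.36-fold difference (log2 fold change -0.44 ± 0.12). It was called in 10 of 14 alternatives; without control replicate 1, 2 or 3 the log2 fold change was -0.48, -0.44 or -0.47 and the gene was not called.

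Opcml encodes the opioid-binding cell adhesion molecule, another GPI-anchored member. It lies beside Ntm (ENSMUSG00000062257, chr9:27790775-28925410, plus strand), and the 2 genes point towards each other with 69.3 kb between their ends. Its reads were 26, 25 and 38 in control and 2, 10 and 2 in Sox10ko, or 0.758 ± 0.151 and 0.115 ± 0.104 CPM. The groups did not overlap, at levels of at most 38 reads a library. The ratio of means was 6.60 (log2 fold change -2.65 ± 0.55) and 13.8 without Sox10ko replicate 2; without control replicate 3 the gene was not called (-2.50). Opcml passed the filter on low counts only through its control reads, so that its call had to go this way if it was made.

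Negr1, a neuronal growth regulator, and Lsamp, a marker of the limbic system, were near the floor of detection and were not tested. Negr1 (ENSMUSG00000040037, chr3:156561794-157316445, plus strand) had 7, 4 and 6 reads in control and 0, 1 and 1 in Sox10ko. The groups did not overlap, and the ratio of 17 to 2 reads, scaled for depth, was 8.44 with a 95% counting interval of 2.00 to 75.4 (Clopper-Pearson, counting error only). Lsamp (ENSMUSG00000061080, chr16:39984361-42181679, plus strand) had 0, 4 and 3 reads in control and 0 in every Sox10ko library. Against a floor of 3 reads over the group, the limit that a count of 0 allows, Lsamp was at least 2.32-fold lower, a bound that leaves out the error of the 7 control reads; the 95% counting interval of the ratio, which includes it, starts at 1.43. Control replicate 1 also had 0 reads, so the groups overlapped.

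Among the teneurins, Tenm3 carried most of the signal. Tenm3 is known for matching connections in the visual and hippocampal circuits. The gene (ENSMUSG00000031561, chr8:48227682-48843951, minus strand) was read at 546, 530 and 433 CPM in control and 63.6, 67.4 and 67.8 CPM in Sox10ko. The 3 Sox10ko libraries were almost equal and all far below the controls. The means were 503 ± 60.9 and 66.3 ± 2.30 CPM, so that Sox10ko kept 13.2% (7.59-fold lower, log2 fold change -2.92 ± 0.12). The call held in all 14 alternatives, with log2 fold changes from -3.04 to -2.87. With a library left out, the difference lay between 7.27-fold and 8.11-fold.

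Tenm4, linked to oligodendrocyte differentiation and myelination in the central nervous system, had the opposite sign. The gene (ENSMUSG00000048078, chr7:96171246-96911093, plus strand) was read at 22.3, 23.6 and 11.3 CPM in control and 34.5, 20.2 and 46.3 CPM in Sox10ko. Sox10ko replicate 2 lay within the control range and control replicate 3 lay below all others. The means were 19.0 ± 6.78 and 33.7 ± 13.1 CPM (log2 fold change 0.82 ± 0.36), and the gene was not called. Without Sox10ko replicate 2 the log2 fold change was 1.08 and the gene was called higher.

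Tenm2, a ligand of latrophilins at synapses, and Tenm1, the X-linked member, were barely read. Tenm2 (ENSMUSG00000049336, chr11:36006656-37235964, minus strand) had 24, 12 and 32 reads in control and 13, 22 and 10 in Sox10ko, with overlapping groups (log2 fold change -0.58 ± 0.45, not called in any setting). Tenm1 (ENSMUSG00000016150, chrX:42527866-43429126, minus strand) had 2, 0 and 1 reads in control and 0, 6 and 0 in Sox10ko. All its Sox10ko reads came from replicate 2, and the depth-scaled ratio of Sox10ko to control was 2.01 with a 95% counting interval of 0.430 to 12.4, which includes equal levels.

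**Figure D2:**
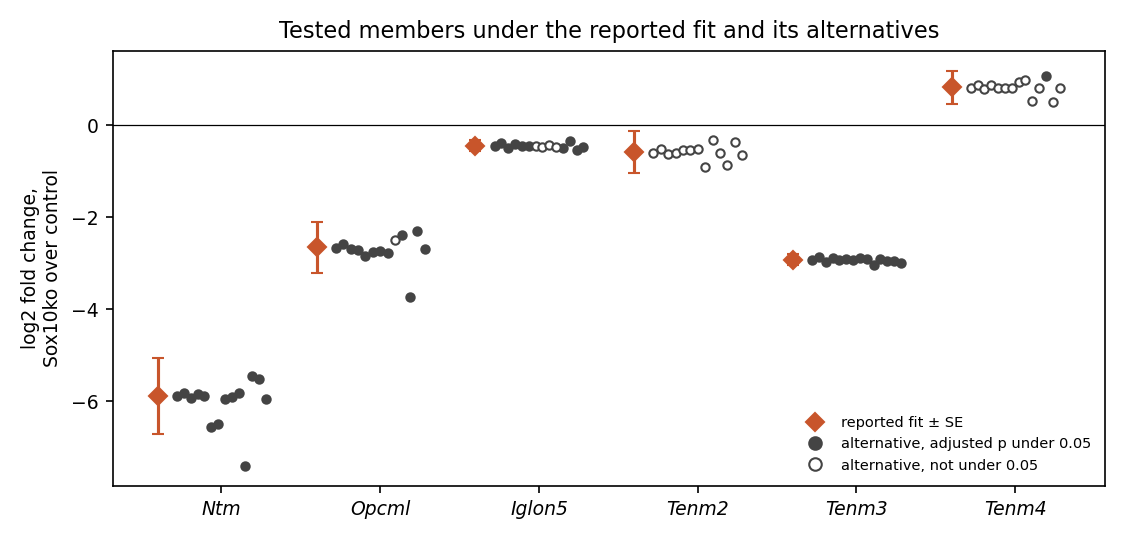
Log2 fold change of Sox10ko over control for the 6 tested members; the diamond with bars is the reported fit ± SE, dots are up to 14 alternative settings each, filled where the adjusted p was under 0.05. Ntm and Tenm3 were called in all of theirs, Tenm2 in none, and Tenm4 only without Sox10ko replicate 2.

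Levels of different genes were compared per length, as CPM per kb of exon (RPKM). In control, Ntm was highest at 66.9 ± 6.02 RPKM, followed by Tenm3 at 49.1 ± 5.95 and Iglon5 at 22.9 ± 0.588, with no overlap between these 3. Tenm4 followed at 0.906 RPKM, then Opcml at 0.0522 and Tenm2 at 0.0505, whose ranges overlapped, then Negr1, and last Lsamp and Tenm1, which overlapped too. In Sox10ko, Iglon5 came to the top at 16.8 ± 2.43 RPKM, above Tenm3 at 6.47 ± 0.225. Tenm4 (1.60 RPKM) and Ntm (1.15 RPKM) came next with overlapping ranges, and Tenm2 lay above the last 4, which overlapped one another in turn. Set among all tested genes by RPKM, Ntm went from above 95.5% of them in control to above 28.9% in Sox10ko, Tenm3 from 93.4% to 57.4%, Iglon5 from 84.1% to 79.3% and Tenm4 from 28.4% to 33.0%. Using the longest transcript as the length raised Ntm to 171 RPKM in control, since its 11 transcripts add up to many more exonic bases than any one of them holds. The order of Ntm, Tenm3 and Iglon5 stayed as it was, but lower places changed. In Sox10ko, Ntm (2.93 RPKM) then stood above Tenm4 (2.56 RPKM) with overlapping ranges, and Tenm2 overlapped Opcml. In control, Tenm2 then overlapped Negr1 and no longer Opcml.

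The make-up of each family's reads followed from these values. Ntm held 89.3 to 90.7% of IgLON reads in control and 31.7, 6.88 and 6.97% in Sox10ko replicates 1 to 3. Iglon5 went from 9.13 to 10.6% in control to 68.3, 92.5 and 92.9%. Tenm3 held 95.7 to 97.3% of teneurin reads in control and 64.6, 76.4 and 59.3% in Sox10ko, and Tenm4 went from 2.53 to 4.26% to 35.0, 22.9 and 40.5%. Summed over the family, IgLON genes stood at 601 ± 49.1 CPM in control and 53.5 ± 13.9 CPM in Sox10ko, and teneurin genes at 522 ± 67.4 and 100.4 ± 13.2 CPM.

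**Figure D3:**
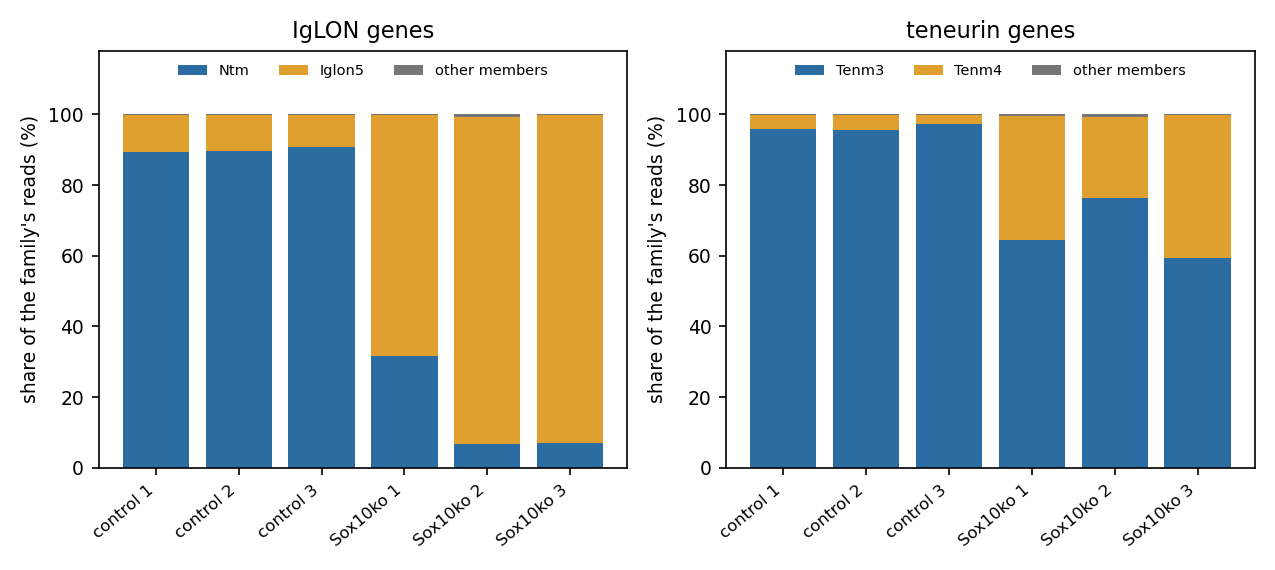
Share of the reads of the IgLON genes (left) and of the teneurin genes (right) that each gene held, in percent, 1 bar per library. Ntm held about 90% of IgLON reads in each control library and at most 31.7% in Sox10ko, where Iglon5 held nearly all the rest; Tenm3 stayed the main teneurin in all 6 libraries while Tenm4 took a larger share in Sox10ko.

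Latrophilins, which bind teneurins, and FLRT proteins, which bind latrophilins, did not all go one way. Of the 6 latrophilin and FLRT genes, 4 were tested, 2 of them fell and 1 rose, where 32.0% of all tested genes were called; the median log2 fold change of the 4 was -0.75. Adgrl3 (latrophilin 3) was read at 112, 93.7 and 83.3 CPM in control and 22.7, 24.3 and 18.2 CPM in Sox10ko, and fell by 2.15 ± 0.16 on the log2 scale (edgeR adjusted p = 0.000201). Flrt3, which binds latrophilins from the opposing membrane, was read at 56.0, 45.7 and 51.6 CPM and then at 21.5, 14.4 and 20.9 CPM, and fell by 1.43 ± 0.17 (edgeR adjusted p = 0.00120). Flrt1 rose from 0.285 ± 0.0824 to 1.39 ± 0.620 CPM (2.29 ± 0.44 on the log2 scale, edgeR adjusted p = 0.00745). It passed the filter on low counts, about 0.253 CPM in 3 libraries, only through Sox10ko, as 1 control library reached that level, so that its call had to go this way if it was made. Adgrl1 (latrophilin 1), the most abundant of the 6 by CPM in both groups, was read at 114, 116 and 107 CPM in control and 106, 109 and 106 CPM in Sox10ko (log2 fold change -0.07 ± 0.08, edgeR adjusted p = 0.575). Adgrl2 had 0, 1 and 0 reads in control and 1, 5 and 5 in Sox10ko, and Flrt2 had 7, 1 and 1 and then 5, 7 and 6; neither was tested. The 3 calls held in all alternatives that tested the gene, Flrt1 being left out where a mean of 5 CPM was required.

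**Figure D4:**
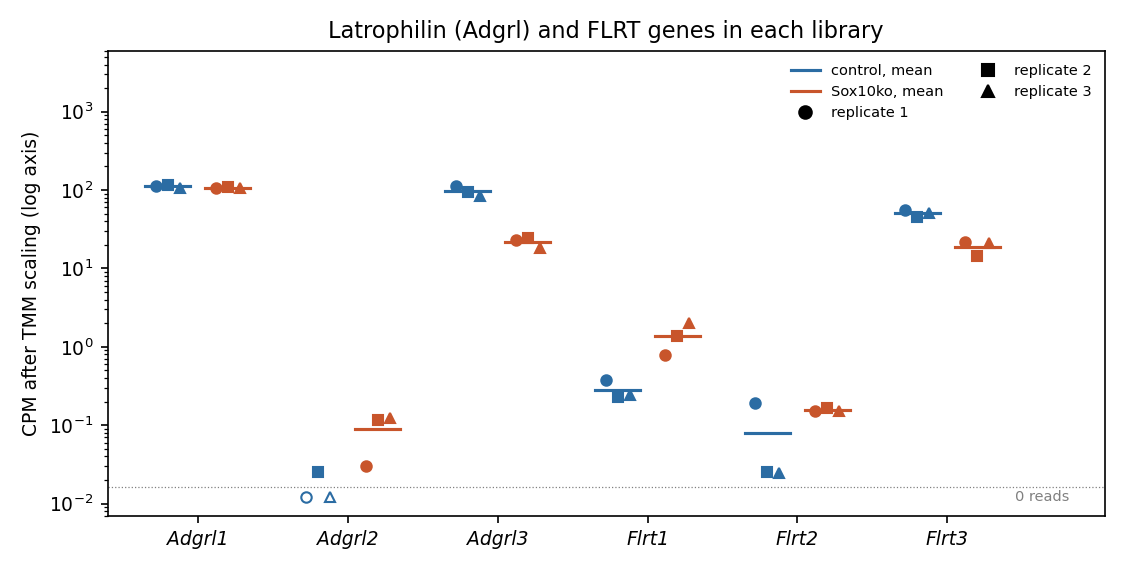
CPM after TMM scaling (log axis) of the latrophilin genes Adgrl1 to Adgrl3 and the FLRT genes Flrt1 to Flrt3 in each library; points are libraries, bars are group means, open points mark 0 reads, and a mean near that line is not drawn. Adgrl3 and Flrt3 were lower in all 3 Sox10ko libraries, Flrt1 was higher at low levels, and the Adgrl1 groups overlap.

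Other adhesion genes of neurons and glia gave a wider frame. Of 57 listed, 27 were tested; 10 fell and 3 rose (48.1% called, against 32.0% of all tested genes), with a median log2 fold change of -0.46, and 10 genes had 0 reads in every library. Without control replicate 3 the count of calls was 8. Nrcam, an L1-family protein of the nodes of Ranvier, was at 203, 257 and 242 CPM in control and 26.6 to 39.97 CPM in Sox10ko and fell by 2.87 ± 0.18 on the log2 scale (edgeR adjusted p = 0.000117), close in size to Tenm3. Cadm1, an adhesion protein with immunoglobulin domains, fell from 459 ± 52.6 to 87.3 ± 23.1 CPM (-2.39 ± 0.21, edgeR adjusted p = 0.000339). Slitrk6 fell from 21.9 ± 12.6 to 0.318 ± 0.117 CPM (-6.11 ± 0.54, edgeR adjusted p = 0.000345). Nfasc, the neurofascin gene, fell by 7.75 ± 0.62 on the log2 scale (edgeR adjusted p = 0.000244), and by 9.29 without Sox10ko replicate 2. No Sox10ko library of Nfasc or Chl1 reached the level of the filter, and only 2 of Slitrk6 did, where 3 libraries were required. Cntnap4, also among the 10 that fell, had 0 reads in Sox10ko replicate 1. These genes passed the filter only through control, so that their calls had to go this way if they were made. Chl1, a close homologue of L1cam, had 23, 49 and 41 reads in control and 0, 1 and 2 in Sox10ko. Igsf9 rose from 0.300 ± 0.00729 to 1.34 ± 0.409 CPM (2.15 ± 0.34, edgeR adjusted p = 0.00336), and Clstn1 (calsyntenin 1) rose from 160 ± 14.9 to 208 ± 7.41 CPM (0.38 ± 0.10, edgeR adjusted p = 0.0260), a call lost without control replicate 2 or 3 or Sox10ko replicate 3.

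All 28 genes listed here for building the GPI anchor of IgLON proteins, a list that need not be complete, were tested. Of these 4 fell and 4 rose (28.6% called, against 32.0%), and the median log2 fold change was 0.08. The split depended on the scaling: 2 fell and 6 rose with library size alone, and 8 fell and 4 rose with chromosome medians removed. Those medians, in log2 against the control mean, differed between single libraries. Sox10ko replicate 3 stood at -0.45 on chromosome 14 and 0.28 on chromosome 17, and Sox10ko replicate 2 at -0.39 on chromosome 15. Control replicate 2 stood at -0.20 on chromosome 1. The cause of these shifts was not tested. Pgap2, which remodels the finished anchor, rose from 11.7 ± 0.731 to 23.2 ± 1.98 CPM (0.99 ± 0.13, edgeR adjusted p = 0.00142), and Pigs, a subunit of the transamidase that attaches it, rose from 32.9 ± 3.14 to 55.5 ± 4.65 CPM (0.75 ± 0.11, edgeR adjusted p = 0.00294). Pigu, another transamidase subunit, fell from 49.7 ± 4.33 to 35.6 ± 1.96 CPM (-0.48 ± 0.10, edgeR adjusted p = 0.0126). Piga, which acts at the start of anchor synthesis, fell from 35.1 ± 1.26 to 25.9 ± 2.56 CPM (-0.44 ± 0.11, edgeR adjusted p = 0.0209), a call lost without any 1 control library. The count of 8 calls was 4 without control replicate 1, 5 without control replicate 2 and 3 without control replicate 3.

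Markers of neurons, the cells in which both families are best known, were mostly low in both groups. Of 20 neuron markers 9 were tested, 1 fell and 1 rose (22.2% called, against 32.0% of all tested genes). The summed level of the 20 was 174 to 220 CPM in control and 122 to 170 CPM in Sox10ko. In both groups that sum was mostly Tubb3 and Map2, the latter at 96.2 and 74.8 CPM on average and not called. Tubb3, a tubulin also read in other cells, fell from 87.9 ± 13.2 to 50.2 ± 13.9 CPM (-0.81 ± 0.21, edgeR adjusted p = 0.0252), a call lost without control replicate 1 or 3 or Sox10ko replicate 3. Slc17a7, a vesicular glutamate transporter gene, rose from 0.465 ± 0.169 to 1.43 ± 0.756 CPM (1.60 ± 0.47, edgeR adjusted p = 0.0358) and was called in 6 of 13 alternatives. Rbfox3 had 0 reads in all 6 libraries. Of 6 melanocyte markers 2 were tested and 0 were called by edgeR, 0 at an unadjusted p under 0.05 and 0 by DESeq2 or limma-voom, where 32.0% of all tested genes were called, with summed levels of 17.3 to 24.9 CPM and 14.2 to 29.2 CPM.

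Very long genes as a class moved both ways. Outside the 2 families, 117 tested genes span at least 500 kb; 29 fell and 31 rose (51.3% called, against 32.0%), and the median log2 fold change was 0.14. Long genes that fell include Sox6, a SoxD transcription factor, from 142 ± 9.57 to 14.2 ± 2.38 CPM (-3.33 ± 0.15, edgeR adjusted p = 3.99e-05), Prkg1, a cGMP-dependent kinase (-4.12 ± 0.23, edgeR adjusted p = 7.74e-05), and Dmd, the dystrophin gene (-3.98 ± 0.25, edgeR adjusted p = 0.000117). Nrg1, encoding neuregulin 1, rose from 2.54 ± 0.683 to 67.9 ± 9.29 CPM (4.74 ± 0.23, edgeR adjusted p = 5.32e-05). Of the 117 genes, 0 had a log2 fold change at or below that of Ntm (-5.88 ± 0.83). Csmd1, called lower at -5.85, lay within the SE of that value. At or below Tenm3 lay 7 of the 117, at or below Opcml 8, at or below Tenm2 33 and at or below Tenm4 83. These counts describe the values and are no test.

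**Figure D5:**
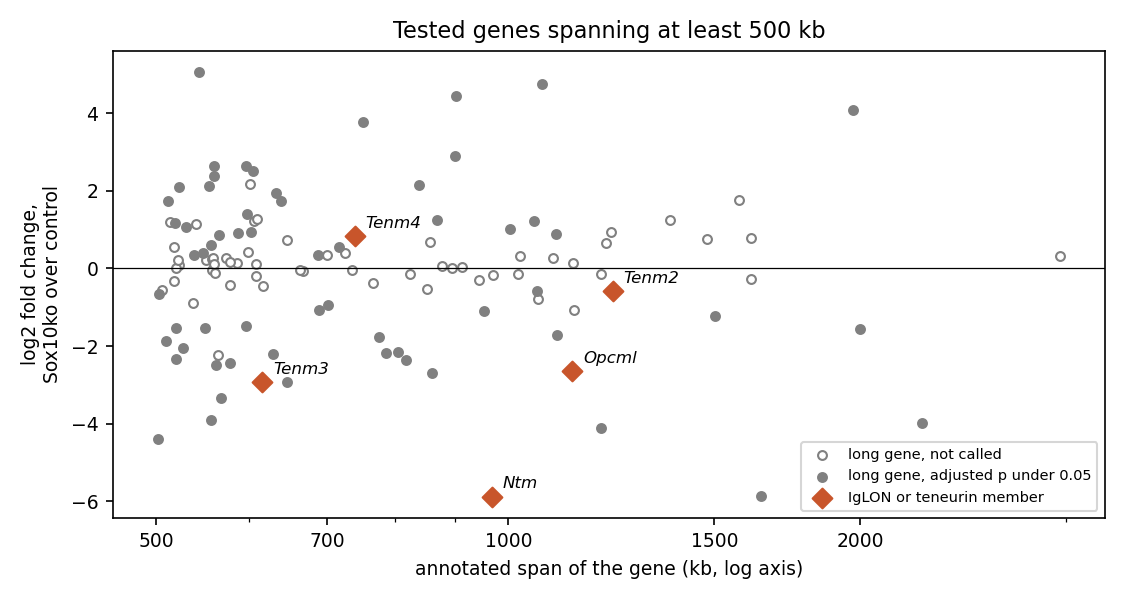
Log2 fold change of Sox10ko over control against annotated span (kb, log axis) for all tested genes of at least 500 kb; circles are the 117 other genes, filled where the adjusted p was under 0.05, and diamonds are the 5 long members that were tested. Long genes lie on both sides of 0, and Ntm lies at the lower edge at nearly the same height as Csmd1, which is not labelled.

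The nearest tested neighbours of the members included genes that fell, genes that rose and genes that were not called. Tenm3 has a head-to-head neighbour, Gm19744 (ENSMUSG00000100706, chr8:48843665-48869901, plus strand), a non-coding transcript whose annotated start is 0.286 kb from the outermost annotated start of Tenm3 and which shares 114 exonic bases with it on the other strand. It had 837, 802 and 801 reads in control and 46, 87 and 77 in Sox10ko, and fell from 20.9 ± 1.60 to 1.78 ± 0.353 CPM (-3.55 ± 0.20 on the log2 scale, edgeR adjusted p = 7.39e-05). Its 3 Sox10ko libraries all lay far below the controls, as those of Tenm3 did. The library kit keeps strand, but whether the counting used it is not given in the sources used here, so reads of the shared bases are uncertain. Of its nearest tested neighbours outside the gene, 4930555F03Rik, at 527 kb, had 23, 33 and 21 reads in control and 1, 0 and 0 in Sox10ko and was called lower, having passed the filter only through control. The other, Dctd, at 74.4 kb, was at 8.47 ± 0.340 and 9.79 ± 1.69 CPM and was not called (log2 fold change 0.21 ± 0.17).

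On chromosome 9, Snx19, 464 kb beyond Ntm, was at 68.3 ± 6.38 and 81.3 ± 5.04 CPM and was not called (0.25 ± 0.10, edgeR adjusted p = 0.107). Igsf9b, 433 kb beyond Opcml, fell from 28.5, 37.2 and 30.4 CPM to 18.2, 19.2 and 16.4 CPM (-0.83 ± 0.14, edgeR adjusted p = 0.00411). The median of the 886 tested genes of that chromosome was 0.04. Lsamp, nearly unread, lies 66.8 kb from Gap43, the growth-associated protein gene, which fell from 125.8 ± 29.6 to 1.09 ± 0.818 CPM (-6.89 ± 0.55, edgeR adjusted p = 0.000237) with a log2 fold change of -7.55 without Sox10ko replicate 1. Tenm2 lies 26.1 kb from Wwc1 (KIBRA), which rose from 13.3 ± 2.50 to 84.3 ± 17.5 CPM (2.66 ± 0.20, edgeR adjusted p = 0.000217). Igsf11, 957 kb from Lsamp on its other side, fell too (-2.23 ± 0.21, edgeR adjusted p = 0.000437). Mat2b, 3443 kb from Tenm2 on its other side, was also called higher (0.31 ± 0.09, edgeR adjusted p = 0.0344), a call kept in 6 of 14 alternatives. The nearest tested neighbours of Negr1 (Lrriq3 and Zranb2) and of Tenm1 (Stag2 and Smarca1) were not called. Whether these barely read members go with their neighbours was not tested. The neighbours of Iglon5 are Vsig10l at 0.885 kb, which was not called (0.04 ± 0.28), and Cd33 at 34.1 kb, which had 23, 11 and 18 reads in control and 1, 0 and 7 in Sox10ko. Cd33 passed the filter only through control, and its call (lower) was lost when any library but Sox10ko replicate 3 was left out.

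The genes most like each member over the 6 libraries were taken by the smallest root mean square difference of log2 CPM after centring each gene on its mean; this likeness is a description of 6 points that share the genotype, and what the matched genes have in common with the member follows from the way they were picked. For Ntm these were Gap43 (0.619 on the log2 scale), Plekhb1 (0.664) and Asxl3 (0.672), all with Sox10ko replicate 1 as the highest of its group. For Tenm3 they were the integrin gene Itga1 (0.0877), the cytokine gene Lif (0.103) and Dclk1 (0.172). For Iglon5 they were Bzw2 (0.0245), Sfxn3 (0.0468) and Sp1 (0.0481). For Tenm4 they were Tm7sf2 (0.224), Rundc3a (0.253) and Mtss1 (0.260).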

How the data were processed

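The data are raw read counts per Ensembl gene, 1 table per library, deposited by the authors as whole numbers. STAR 2.6.0c, HTSeq, DESeq2 and the build mm10 (GRCm38) are named in the submitters' processing notes. Their roles, the annotation release and the strand setting of the counting were not given in the sources used here. Per the labels' protocols, libraries came from a stranded mRNA kit. Without molecular identifiers, reads are not independent molecules, so intervals and floors cover counting error only. Symbols (54042 of 54109 IDs), spans and coordinates came from GENCODE M21, and promoters from RefSeq.

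The counts of all 6 libraries were filtered with filterByExpr, scaled by TMM and tested with the quasi-likelihood F test of edgeR 4.0.16 (R 4.3.3), without covariates, two-sided, with Benjamini-Hochberg adjustment over 15427 genes and a threshold of 0.05. Alternatives were other scalings (DESeq2 size factors, library size), other filters (none, a mean of 5 CPM), DESeq2 1.42.0, limma-voom (limma 3.58.1), a replicate block, removal of chromosome medians, leaving out each library and, for levels per length, the longest transcript. Replicates differed by more than sampling noise in every pair (chi-square per degree of freedom from 24.7 to 80.9).

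The members and lists (latrophilins and FLRT genes, other neural adhesion, GPI anchor assembly, long genes, and markers of Schwann cells, neurons, fibroblasts, smooth muscle and melanocytes) were chosen with earlier results of these data known. Named genes were the members and Sox10, the 6 partners, per list up to 5 called genes with the lowest adjusted p and 2 against its majority, the 3 genes most like each member with a mean of at least 1 CPM, overlapping genes with 10 reads, and the nearest tested neighbours, of which those that bear on a result are printed.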

Additional observations from a re-analysis of the deposited data

How the results depend on the processing

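Calls near the threshold depended on single libraries, and genes under 1 CPM on a few reads. Over the alternatives, the tested members gave 82 fold changes, of which 76 kept direction and side of the threshold, 5 were no longer called (Iglon5 and Opcml), 1 was newly called (Tenm4) and 0 changed sign. With a library left out, the called members numbered 2 to 5, the other neural adhesion genes 8 to 13, the GPI anchor genes 3 to 8 and all tested genes 2869 to 4681. The replicate numbers were not taken to pair the cultures. Same-numbered libraries had correlations of their deviations from the group means of -0.12, -0.04 and 0.04, and differently numbered ones from -0.07 to 0.10. Such values cannot exclude shared handling of same-numbered cultures. With the replicate block, 3 members and 3 GPI anchor genes were called, Iglon5 (-0.45) no longer among them, and 3537 of all tested genes. DESeq2 called 5690 genes and a filter at a mean of 5 CPM left 3386 calls. Genes near 0 changed sign: Vsig10l was -0.0071 with limma-voom and -0.24 to 0.19 with a library left out, Smarca1, beside Tenm1, was 0.023 with library size alone and -0.57 to 0.34, and Gm15413, antisense to Tenm4, was -0.081 to 0.78. The cause was not tested.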
